A study of Mus musculus with 36 samples.

Results

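Proneural and neurogenic factors are the transcription factors that start and carry through the change from a dividing neural precursor to a neuron. The 7 genes described here are Neurog2, Neurod1, Neurod4, Atoh7, Olig2, Hes6 and Insm1. They were taken by symbol from a table of normalised expression values, which the authors name CPM, that lists 15289 genes, and each symbol has 1 row. The study is RNA-seq of mouse cells of the Nrl-GFP strain, in which the promoter of the rod gene Nrl drives a green fluorescent protein, and cells were sorted by reporter expression before 80 ng of total RNA was taken per sample. The labels name 1 protocol for all samples, in which fibroblasts received 5 chemicals in a photoreceptor induction medium for 11 days.

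The culture groups were embryonic fibroblasts at passage 2 (MEF, n = 3), intermediates at day 5 and at day 8 (n = 3 each) and the photoreceptor-like product, called CiPC (n = 3). The rod groups were sorted retinal rods at postnatal day 2 (P2, n = 2), P4 (n = 2), P5 (n = 3), P6 (n = 3), P10 (n = 4), P14 (n = 3) and P28 (n = 4). The labels tie most rods other than P5 to older samples. The 3 samples labelled P3 were not analysed here. All groups share the reporter strain, and whether replicate libraries of 1 group stem from different cultures or mice is not labelled. The p-values therefore measure the spread between these libraries, which may be technical. The cells were bulk samples, in which fewer cells of a type and less RNA per cell cannot be told apart.

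Most of these factors are basic helix-loop-helix (bHLH) proteins. They pair with broadly expressed E-proteins, bind the E-box letters CANNTG in DNA, and switch on Delta ligands and neuronal genes. Notch signalling from neighbouring cells opposes them through the Hes and Hey repressors, and Id proteins oppose them by taking up the E-proteins. In the retina, Neurog2 and Atoh7 act in precursors about to leave the cell cycle, Atoh7 being required for ganglion cells. Olig2 marks a neurogenic precursor state in the retina and is best known from oligodendrocytes and motor neurons. Neurod1 acts in young and mature photoreceptors, and Neurod4 in making bipolar cells. Hes6 is an unusual member of the Hes family that counters Hes1 and favours differentiation. Insm1 is a zinc-finger repressor of late neurogenic precursors and neuroendocrine cells.

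Promoter sequence is shown for 3 members that differed in their course through the series. Of these only Hes6 has E-box letters in the window shown. RefSeq (GRCm38.p6) gives start sites for 6 of the 7 members in 8 windows, and the 250 bases before each start were searched on both strands. The letters CANNTG were present in the windows of 3 members (Neurod1, Atoh7 and Hes6) and stood in 66.22% of all 32851 mouse windows of that length. The Neurog2 window covers chr3:127632886-127633135 on the plus strand and the Neurod4 window chr10:130280255-130280504 on the minus strand, and neither has CANNTG. The Hes6 window covers chr1:91414039-91414288 on the minus strand and has 3. The sequences run 5′ to 3′ toward the start site, with each CANNTG in capitals:
Neurog2: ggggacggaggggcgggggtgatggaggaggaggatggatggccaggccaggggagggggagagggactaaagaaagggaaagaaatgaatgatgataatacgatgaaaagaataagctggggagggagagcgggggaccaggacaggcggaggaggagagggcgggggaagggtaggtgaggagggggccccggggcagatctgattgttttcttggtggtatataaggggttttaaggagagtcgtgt
Neurod4: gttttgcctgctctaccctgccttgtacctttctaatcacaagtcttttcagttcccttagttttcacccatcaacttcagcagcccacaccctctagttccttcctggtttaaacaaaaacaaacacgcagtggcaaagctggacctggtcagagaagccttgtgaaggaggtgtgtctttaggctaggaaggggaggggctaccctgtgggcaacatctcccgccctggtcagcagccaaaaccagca
Hes6: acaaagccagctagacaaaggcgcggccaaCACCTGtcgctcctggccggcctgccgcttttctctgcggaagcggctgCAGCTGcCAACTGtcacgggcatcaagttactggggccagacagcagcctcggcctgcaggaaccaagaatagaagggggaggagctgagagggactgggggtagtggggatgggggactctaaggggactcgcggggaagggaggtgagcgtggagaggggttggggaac
The letters TATAA, searched after the sequences had been seen, began 27 bases before the Neurog2 start, 29 before that of Neurod1 and 30 before that of Atoh7. Olig2 had them 8 bases before its start and Hes6 28 bases before its other start, while Neurod4 had none in either window. A TATAA on the gene's strand beginning 25 to 35 bases before the start was found in 2.968% of all windows. The letters TAATCC, bound by homeodomain factors such as Crx and Otx2, were in none of the members' windows and in 6.252% of all windows. These matches describe letters, and binding was not measured.

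In GRCm38 with the GENCODE M21 annotation all 7 are protein-coding genes. Neurog2 lies at chr3:127633135-127635631, Neurod1 at chr2:79452521-79456751, Neurod4 at chr10:130268152-130280240, Atoh7 at chr10:63099651-63101279, Olig2 at chr16:91225457-91228677, Hes6 at chr1:91411483-91414038 and Insm1 at chr2:146221921-146225020. The values below are whole-gene CPM. Whether they are scaled by transcript length is not given in the sources used here, so levels are compared between libraries of 1 gene and not between genes.

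The sum of the values in a library ranged from 719752 to 2277242 and was highest in the 4 P28 libraries, so these units are not shares of a fixed total, and the read depth is unknown. Fibroblast markers (8 genes) summed to between 21480 and 23340 CPM in MEF and to between 605 and 663 in CiPC. Of the rod genes, Crx averaged 93.0 ± 5.68 CPM (SD, n = 3) in CiPC and 0.391 ± 0.197 in MEF, and Nrl 30.7 ± 0.282 against 0.237 ± 0.0582. The P5 rods stood apart from the rods of nearby ages in the bipolar cell receptor gene Grm6. It was 215 ± 2.08 at P5 against 1.46 ± 1.00 at P4 (n = 2) and 22.8 ± 1.83 at P6 (n = 3). The 9 bipolar cell genes together did not stand apart in this way. They summed to between 1718 and 1758 CPM at P5, within the P6 range of 1599 to 1783 and above the 1385 to 1477 at P4. Of the cell types known for Olig2 and Atoh7, the 6 oligodendrocyte lineage genes in the table summed to between 30.4 and 33.5 CPM in CiPC, with Sox10 at 0.0291 ± 0.0504 and Pdgfra at 9.13 ± 0.716, and the 7 ganglion cell genes summed to between 21.7 and 22.7 CPM, with Rbpms at 12.7 ± 0.538 and Pou4f1 at 0.594 ± 0.195.

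**Figure D1:**
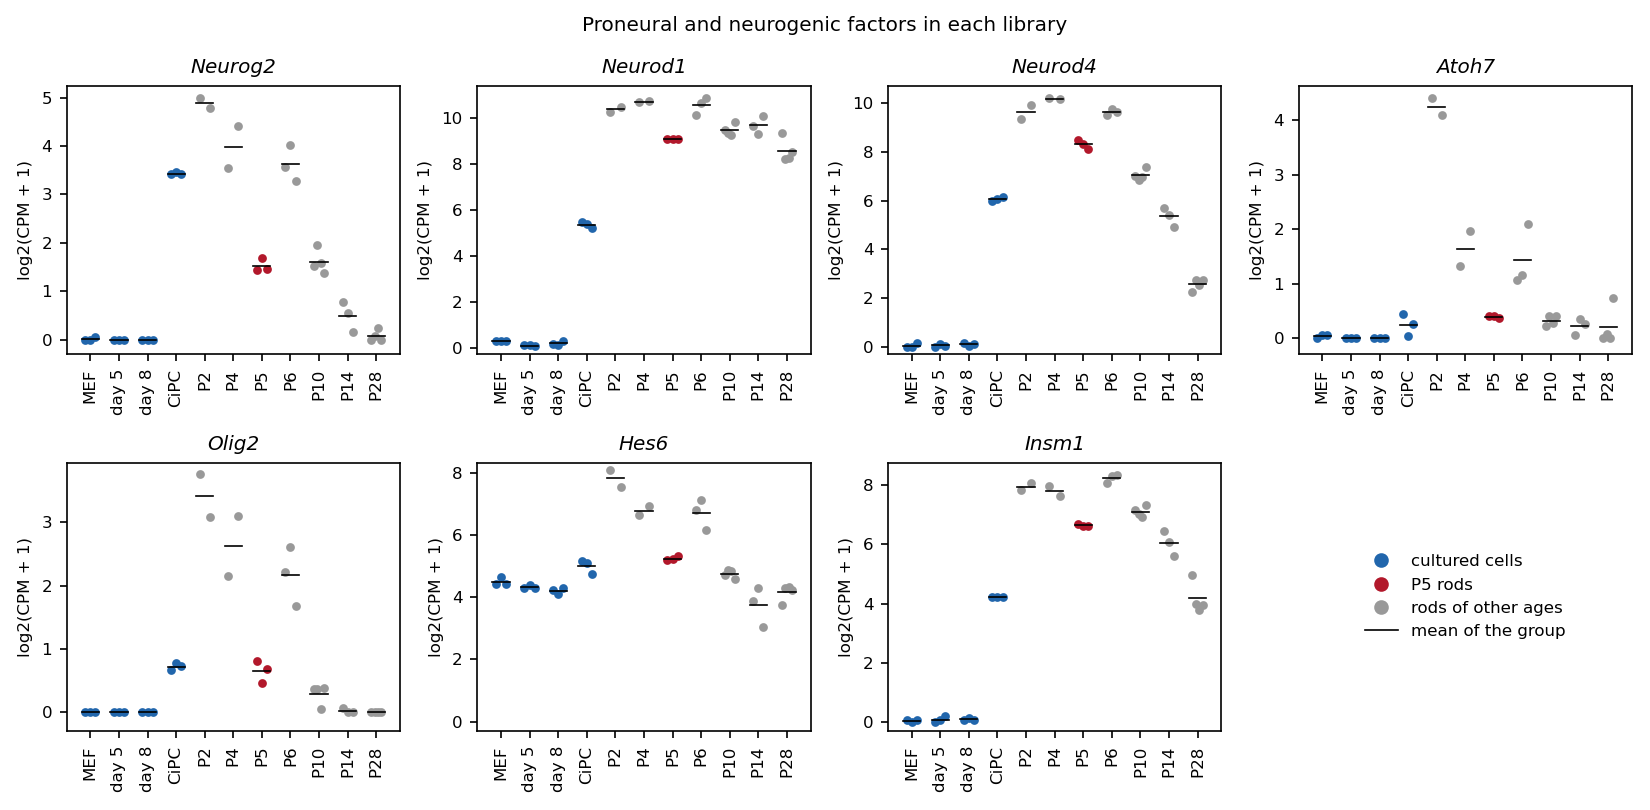
Level of each member in every library, with 1 panel per gene, groups on the horizontal axis and normalised CPM on a log2(CPM + 1) axis. Points are libraries and bars are group means. Neurog2, Neurod1, Neurod4 and Insm1 sit near 0 in MEF, day 5 and day 8 and are above 9 CPM in every CiPC library.

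Neurog2, a bHLH factor of precursors entering neurogenesis, was listed at 0 in 2 MEF libraries and at 0.0458 CPM in the third, and at 0 in all 6 libraries of day 5 and day 8. The 3 CiPC libraries had 9.65, 10.0 and 9.70 CPM. Every CiPC library was therefore above every other culture library, and the CiPC libraries lay close together. In rods Neurog2 was 30.8 and 26.5 CPM at P2, 10.8 and 20.2 at P4, 1.71, 2.22 and 1.76 at P5, and 10.9, 15.3 and 8.68 at P6. It was 1.90, 2.87, 1.99 and 1.59 CPM at P10, 0.729, 0.469 and 0.113 at P14, and 0, 0.0641, 0.189 and 0 at P28. The order of group means was P2, P4, P6, CiPC, P10, P5, P14, P28 and MEF. P4 and P6 overlapped, the CiPC values fell within the P6 range, and P10 and P5 overlapped.

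Neurod1, the bHLH factor of young and mature photoreceptors, had 0.201, 0.225 and 0.202 CPM in MEF, 0.0726, 0.0735 and 0.0394 at day 5, and 0.118, 0.0796 and 0.223 at day 8. The CiPC libraries had 42.6, 40.0 and 35.6 CPM. In rods it was 1216 and 1422 CPM at P2, 1636 and 1683 at P4, 543, 529 and 541 at P5, and 1120, 1595 and 1824 at P6. CiPC thus lay between the other culture groups and all rods, with no overlap on either side. The later rods had 694, 648, 609 and 902 CPM at P10, 805, 614 and 1086 at P14, and 634, 292, 303 and 358 at P28. Neurod1 was thus still far above its CiPC level at P28, where replicate 1 was the highest. P10 and P14 overlapped, and so did P5 and P28.

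Neurod4, the bHLH factor of bipolar and amacrine cell genesis, was listed at 0, 0 and 0.115 CPM in MEF, at 0, 0.104 and 0.0372 at day 5, and at 0.111, 0.0370 and 0.0836 at day 8. CiPC had 62.4, 66.2 and 70.0 CPM. The rods had 645 and 966 CPM at P2, 1163 and 1136 at P4, 353, 316 and 279 at P5, and 727, 850 and 796 at P6. All CiPC libraries were below all of these. The values then were 128, 115, 124 and 163 CPM at P10, 51.0, 41.8 and 29.7 at P14, and 3.80, 5.73, 4.77 and 5.66 at P28. CiPC lay between P10 and P14 without overlap, and no 2 neighbouring groups from P6 through P5, P10, CiPC and P14 to P28 overlapped.

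Atoh7, the bHLH factor needed for retinal ganglion cells, was listed at 0, 0.0367 and 0.0392 CPM in MEF and at 0 in all 6 libraries of day 5 and day 8. CiPC had 0.355, 0.0312 and 0.189 CPM. The highest CiPC library was thus under 1 CPM, and the lowest lay within the MEF range. In rods Atoh7 was 20.3 and 16.1 CPM at P2, 1.5 and 2.90 at P4, 0.332, 0.319 and 0.286 at P5, and 1.1, 1.24 and 3.27 at P6. It ranged from 0.162 to 0.321 CPM at P10, from 0.0376 to 0.275 at P14 and from 0 to 0.664 at P28. P2 stood above every other group, and P4 and P6 overlapped.

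Olig2, a bHLH factor of neurogenic precursors, was listed at 0 in all 9 libraries of MEF, day 5 and day 8 and had 0.580, 0.709 and 0.647 CPM in CiPC. The rods had 12.5 and 7.48 CPM at P2, 3.44 and 7.58 at P4, 0.754, 0.381 and 0.605 at P5, and 3.66, 5.11 and 2.20 at P6. The CiPC values fell within the P5 range. They were below every P2, P4 and P6 library. Olig2 was 0.290, 0.280, 0.0335 and 0.306 CPM at P10, was at 0.0420 in 1 P14 library and listed at 0 in the other two, and was listed at 0 in all 4 P28 libraries.

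Hes6, the Hes family member that favours differentiation, was the member with a clear signal in fibroblasts: 20.5, 23.9 and 20.5 CPM in MEF, 18.5, 20.2 and 18.9 at day 5, and 17.9, 16.3 and 18.6 at day 8. CiPC had 35.3, 33.5 and 25.7 CPM, all above every other culture library. The rods had 271 and 188 CPM at P2, 99.6 and 121 at P4, 35.6, 36.2 and 38.9 at P5, and 113, 138 and 71.5 at P6. At P10 it had 25.2, 28.8, 27.9 and 22.9 CPM, at P14 13.8, 18.6 and 7.23, and at P28 12.5, 18.9, 19.1 and 17.8. Every P14 and P28 rod library was thus below every MEF library, and CiPC overlapped P10.

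Insm1, the zinc-finger repressor, had 0.0492, 0 and 0.0479 CPM in MEF, 0, 0.0431 and 0.141 at day 5, and 0.0495, 0.10 and 0.0543 at day 8. CiPC had 17.6, 17.6 and 17.7 CPM. The rods had 225 and 268 CPM at P2, 252 and 195 at P4, 101, 97.5 and 97.4 at P5, and 266, 316 and 324 at P6. CiPC was below all of these libraries. The later rods had 141, 130, 119 and 160 CPM at P10, 86.3, 66.2 and 47.2 at P14, and 30.2, 15, 12.8 and 14.3 at P28. The CiPC values fell within the P28 range only through P28 replicate 1 (30.2 CPM), and the other P28 libraries were below every CiPC library.

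The first comparisons ask when along the culture the members changed. Of the 5 members that could be tested, none was called at either intermediate step, and 4 rose between day 8 and CiPC. Changes are given as log2 differences of CPM + 1 with their standard errors. A gene was called when its limma p, adjusted by Benjamini-Hochberg over all 14798 genes tested, was under 0.05 and it changed at least 2-fold. Atoh7 and Olig2 did not reach 1 CPM in 3 libraries of the culture and P5 fit and were not tested there. Between MEF and day 5, 0 of 5 tested members were called where 26.2% of all genes were, and between day 5 and day 8, 0 of 5 where 5.95% were. At an unadjusted limma p under 0.05 the counts were 1 (Neurod1) and 0. Neurog2, Neurod1, Neurod4 and Insm1 entered the fit through CiPC and P5 and were too low in MEF, day 5 and day 8 to be called lower on this scale, so these counts are not to be read against the shares of all genes. The Neurod1 difference was -0.19 ± 0.084 (SE) on this scale (adjusted p = 0.0538), from 0.209 ± 0.0135 CPM to 0.0618 ± 0.0194 (SD, n = 3 each).

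Between day 8 and CiPC, Neurod4 rose by 5.96 ± 0.097, Neurod1 by 5.15 ± 0.084, Insm1 by 4.12 ± 0.079 and Neurog2 by 3.43 ± 0.080, with adjusted limma p-values from 2.05e-17 to 1.61e-15. Of all genes tested, 29.9% were called in this step and 14.3% were higher. These 4 members passed the filter on low values through CiPC and the P5 rods, where they are high, so their count is given as a description. Hes6 was 0.79 ± 0.10 higher (adjusted p = 3.47e-06), from 17.6 ± 1.19 to 31.5 ± 5.14 CPM, which is a 1.79-fold ratio of means and short of the 2-fold rule. When the columns were scaled to equal sums, the Hes6 difference was 1.08 and passed it.

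Set against MEF, CiPC was higher by 6.02 ± 0.097 in Neurod4, 5.06 ± 0.084 in Neurod1, 4.17 ± 0.079 in Insm1 and 3.41 ± 0.080 in Neurog2, so 4 of the 5 tested members were called where 31.4% of all genes were, 15.4% higher. Hes6 was 0.51 ± 0.10 higher (adjusted p = 0.000289) and was not called. The comparison shares its CiPC libraries with the one against day 8. Had the filter been left out, Olig2 would have been 0.72 ± 0.079 higher in CiPC than in MEF (adjusted p = 5.93e-07) and Atoh7 0.21 ± 0.082 (adjusted p = 0.0302), both short of the 2-fold rule. For scale, the P5 rods exceeded MEF by 8.80 ± 0.084 in Neurod1, 8.25 ± 0.097 in Neurod4, 6.60 ± 0.079 in Insm1 and 1.51 ± 0.080 in Neurog2, so that the same 4 of 5 tested members were called where 52.5% of all genes were, 23.3% higher, and Hes6 was 0.75 ± 0.10 higher and not called. These 4 members entered the fit through CiPC and P5, where they are high. Both counts against MEF are therefore descriptions and are not read against the shares of all genes.

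**Figure D2:**
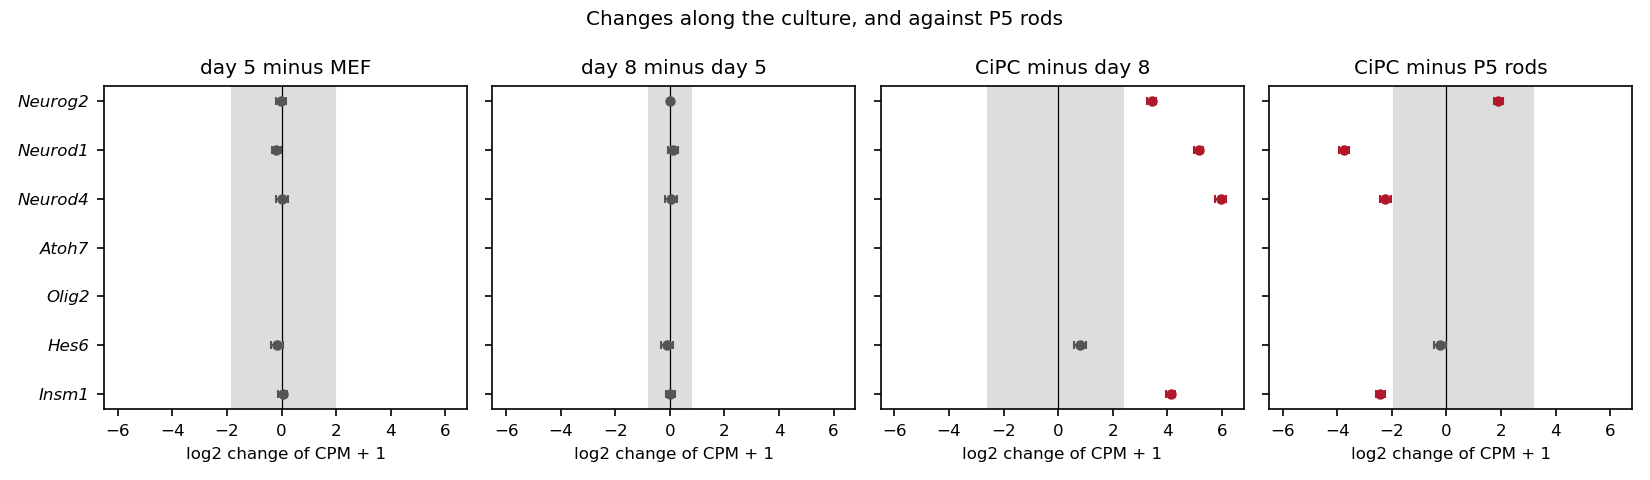
Log2 difference of CPM + 1 for the 5 tested members along the culture steps and between CiPC and P5 rods. Points are limma estimates with 95% intervals, red where called, and the grey band spans the 5th to the 95th percentile of all genes tested. Both early steps lie near 0, the step from day 8 to CiPC has 4 called members, and against P5 Neurog2 is higher while Neurod1, Neurod4 and Insm1 are lower.

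Genes that work with or against these factors were followed over the same step. Of 15 other proneural and neurogenic bHLH genes, 9 were in the table and 6 were tested, and between day 8 and CiPC 4 rose and 0 fell (median log2 difference 1.39, against -0.03 for all genes). They were Nhlh2 (5.74 ± 0.984 CPM in CiPC, 0.0792 ± 0.0198 at day 8), Bhlhe23 (2.10 ± 0.338 and 0.0150 ± 0.0259), Olig1 (2.07 ± 0.273 and 0.0163 ± 0.0283) and Bhlhe22 (17.8 ± 1.77 and 7.26 ± 0.294). Ptf1a, which steers precursors to amacrine and horizontal fates, was listed at 0 in every culture library, although the amacrine and horizontal cell genes that were tested rose at this step.

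Of the 3 E-protein partners (Tcf3, Tcf4 and Tcf12), 0 were called by limma between day 8 and CiPC, although 2 had an unadjusted p under 0.05, and their summed level was between 286 and 322 CPM at day 8 and between 462 and 494 in CiPC. Of the bHLH antagonists, 9 of 10 were tested and 8 rose between day 8 and CiPC (median log2 difference 2.26). Hes1, the Notch-driven repressor that holds precursors undifferentiated, went from 4.06 ± 0.918 to 73.9 ± 5.80 CPM, Id1 from 5.92 ± 0.991 to 37.4 ± 3.01 and Hey2 from 0.381 ± 0.0865 to 5.84 ± 0.210. Hes5, another Notch-driven repressor, was listed at 0 in all 3 day 8 libraries and had 8.50 ± 3.01 CPM in CiPC. Against MEF, 4 antagonists were higher in CiPC and 2 lower, and between MEF and day 5, 5 of 9 had fallen. The factors and their antagonists were thus both higher in CiPC than at day 8.

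Of 25 targets and cofactors of proneural factors, 24 were tested, and 8 rose and 2 fell between day 8 and CiPC (median log2 difference 0.64). The zinc-finger factor gene Myt1 rose by 4.29 ± 0.12, Rgs16 by 3.99 ± 0.059 and the neuronal splicing factor gene Srrm4 by 3.37 ± 0.14. Cdkn1c, an inhibitor of cell division, fell by 3.80 ± 0.10, from 468 ± 35.7 to 32.9 ± 4.66 CPM. Of 10 proliferation genes 2 were higher in CiPC than at day 8 and 0 lower, with sums of 965 to 1023 CPM at day 8 and 1474 to 1619 in CiPC, and all 10 were higher in CiPC than in MEF. At this step 9 of 10 rod, 8 of 9 bipolar, 6 of 8 Muller glia, 8 of 9 retinal progenitor and 7 of 7 tested neuroendocrine genes rose, while 1 Muller glia and 1 retinal progenitor gene fell. All 6 tested amacrine and horizontal cell genes rose too, with sums of 7.88 to 10.2 CPM at day 8 and 211 to 212 in CiPC. Most of the CiPC sum was Prox1, at 164 ± 4.27 CPM against 1.15 ± 0.253 at day 8. In MEF these genes had summed to 31.1 to 36.8 CPM, and against MEF 3 of the 6 were called higher in CiPC and 0 lower. Of 5 tested ganglion cell genes 0 rose and 2 fell. Their part in the members' rise was not tested.

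The next comparison sets CiPC beside the P5 rods of the same set of samples. Of the 5 tested members, Neurog2 was higher in CiPC by 1.90 ± 0.080, which is 5.17 times the P5 mean, and 3 were lower, with differences of -3.74 ± 0.084 for Neurod1, -2.42 ± 0.079 for Insm1 and -2.23 ± 0.097 for Neurod4. CiPC means were 7.33% of the P5 mean for Neurod1, 17.8% for Insm1 and 21% for Neurod4. The adjusted limma p-values of these 4 were between 9.07e-16 and 3.52e-12, and 39.7% of all genes were called, 22.8% higher and 16.9% lower. After quantile normalisation the called genes were 2912 higher and 3307 lower, in place of 3369 and 2501, with Neurog2 still called higher and Neurod1, Neurod4 and Insm1 lower. Hes6 differed by -0.23 ± 0.10 (adjusted p = 0.0454, 95% interval -0.45 to -0.016), a difference under 2-fold. Without the filter, the Olig2 difference was 0.06 ± 0.079 (adjusted p = 0.460).

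Around the members, 1 other bHLH gene was higher in CiPC than in P5 rods and 3 were lower, 6 of 9 antagonists were higher and 0 lower, and 3 targets were higher and 12 lower. Hes1 was 73.9 ± 5.80 CPM in CiPC against 1.17 ± 0.371 at P5, and Id2, which binds E-proteins, was 66.8 ± 3.22 against 5.19 ± 0.295. Bhlhe23, a factor of rod bipolar cells, was 2.10 ± 0.338 in CiPC against 46.2 ± 2.14 at P5, and Myt1 23.7 ± 1.54 against 250 ± 4.00. All 10 proliferation genes were higher in CiPC, all 10 rod genes lower, and 7 of 8 Muller glia genes higher. Of 9 bipolar genes 8 were lower in CiPC. Their part in the members' differences was not tested.

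The P5 rods were themselves set against rods of neighbouring ages, and all 7 members were lower at P5 than in the mean of P4 and P6. In a fit over all 33 libraries the differences were -2.27 ± 0.17 for Neurog2, -1.75 ± 0.17 for Olig2, -1.60 ± 0.15 for Neurod4, -1.54 ± 0.19 for Neurod1, -1.50 ± 0.21 for Hes6, -1.38 ± 0.19 for Insm1 and -1.15 ± 0.18 for Atoh7. Of all genes tested 19.1% were called, 11.7% lower, and the same limit holds for Atoh7 and Olig2, which reached 1 CPM only at P2, P4 and P6. P5 did not overlap P4 or P6 in any member. Atoh7 was at -0.99 and no longer called without P4 replicate 2, and at -0.99 without P6 replicate 3. The P5 libraries and those of P4 and P6 come from different sets of samples, so the set and the age cannot be told apart.

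Other genes moved with the members there. Of 10 proliferation genes 9 were lower at P5, with sums of 754 to 824 CPM at P4, 91.0 to 94.9 at P5 and 264 to 361 at P6. Of 9 retinal progenitor genes 8 were lower and 1 higher, and of 8 Muller glia genes 7 were lower and 0 higher. Of 9 bipolar genes 5 were higher and 0 lower, and of 10 rod genes 1 was higher and 2 lower. Hes5 was -4.05 ± 0.36 and Insm2, the close relative of Insm1, -3.95 ± 0.13, whereas Bhlhe23 was 3.09 ± 0.17 higher. The part of these genes' cells in the members' differences was not tested.

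Against the mean of the youngest rods, P2 and P4, all 7 members were lower in CiPC, where 36.2% of all genes were called and 17.5% were lower. Atoh7 and Olig2 passed the filter only through the P2, P4 and P6 rods, where they are high, so the count is a description and is not read against those shares. Neurod1 was -5.20 ± 0.20, Neurod4 -3.83 ± 0.15, Insm1 -3.65 ± 0.19, Atoh7 -2.70 ± 0.19, Olig2 -2.31 ± 0.18 and Hes6 -2.30 ± 0.22. Neurog2 was nearest to these rods at -1.0 ± 0.17 (95% interval -1.36 to -0.64), on the 2-fold border, and it was not called without CiPC replicate 1 (-0.99) or 3 (-0.99), without P2 replicate 1 (-0.95) or without P4 replicate 2 (-0.79). The CiPC mean of Neurog2 was 34.2% of that at P2, 63.4% of P4 and 84.3% of P6, while for Neurod1 these shares were 2.99%, 2.38% and 2.61%. The set of samples and the cell type cannot be told apart here either. The 10 proliferation genes summed to between 1474 and 1619 CPM in CiPC, 1597 and 1674 at P2 and 754 and 824 at P4, and 4 of them were higher in CiPC and 0 lower. Of the other lists, 9 of 10 rod genes and 20 of 24 targets were lower in CiPC, with 2 targets higher, and 5 of 8 Muller glia genes (1 lower) and 7 of 8 fibroblast genes were higher. Their part in the members' differences was not tested.

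**Figure D3:**
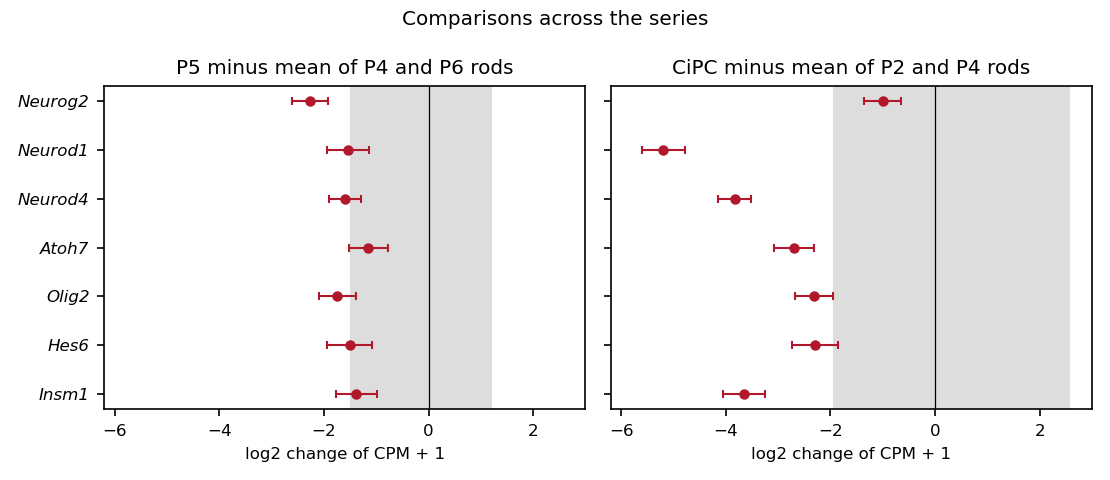
Log2 difference of CPM + 1 for all 7 members between P5 and the mean of P4 and P6, and between CiPC and the mean of P2 and P4. Points are limma estimates with 95% intervals, red where called, and the grey band spans the 5th to the 95th percentile of all genes tested. All members are lower in both comparisons, with Neurog2 nearest to 0 in the second.

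In the rods other than P5, all 7 members fell with age over the range as a whole. The courses were not straight lines: Neurod1 and Neurod4 means at P4 were 126% and 143% of P2, and Insm1 at P6 was 122%. A fitted change therefore need not equal the difference between the P2 and P28 means. The change from P2 to P28, fitted on log2 age over 18 libraries, was -8.38 ± 0.75 for Neurod4, -5.39 ± 0.40 for Neurog2, -4.26 ± 0.54 for Insm1, -4.19 ± 0.49 for Hes6, -3.82 ± 0.42 for Olig2, -3.56 ± 0.50 for Atoh7 and -2.17 ± 0.36 for Neurod1, with adjusted limma p-values from 8.27e-10 to 2.13e-05. Of all 13668 genes tested 54.6% were called and 32.9% fell (2978 higher and 4491 lower, or 724 and 8801 with columns scaled to equal sums and 3421 and 3319 after quantile normalisation). The median of all genes was -0.30, and it became -1.55 with columns scaled to equal sums and 0.05 after quantile normalisation. All 7 members were called lower under each of these scalings too. Atoh7 and Olig2 entered this fit too only through the young rods, so the count of 7 is a description. Libraries of 1 age differed among themselves at P10 and P14, where the 10 rod genes summed to between 36230 and 89528 CPM and between 76403 and 171890.

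**Figure D4:**
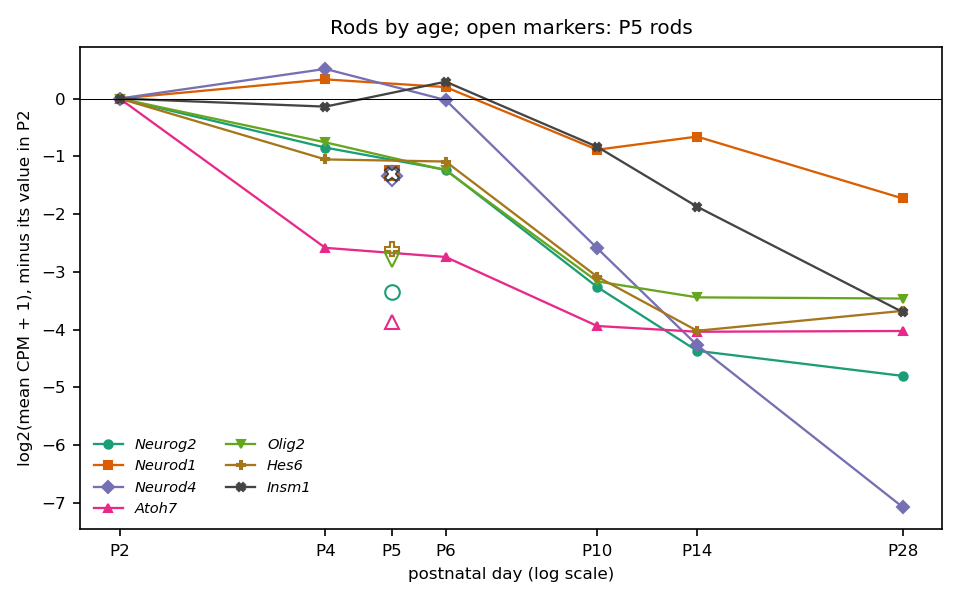
Level of each member against postnatal day, all in the same panel. The day axis is on a log2 scale, and the level is log2(mean CPM + 1) minus its value at P2. Filled markers joined by lines are group means of the rods used in the age fit. Open markers are the means of the P5 rods, which were not in the fit and lie below the P4 and P6 means for every member.

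By single age steps, between P2 with P4 and P6, Atoh7 alone of the 7 was called lower (-1.51 ± 0.25, adjusted p = 0.00116), where 3% of all genes were called and 1.97% were lower. The Atoh7 mean was 18.2 CPM at P2, 2.20 at P4 and 1.87 at P6. P4 and P6 overlapped, so its difference came from the P2 libraries on the younger side and not from a fall between P4 and P6. Atoh7 and Olig2 entered the fit only through rods of these ages. Olig2 was -0.85 ± 0.24 (adjusted p = 0.0455) and Neurog2 -0.81 ± 0.24 (adjusted p = 0.0540), both under 2-fold, and Neurod1 had a difference of 0.01 (95% interval -0.57 to 0.58). Without P4 replicate 1, or without P6 replicate 2, Olig2 and Neurog2 were called too, and Olig2 also without P2 replicate 2.

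From P6 to P10 all 7 were lower, where 15.2% of all genes were called and 8.06% fell. Atoh7 and Olig2 entered this fit only through the P2, P4 and P6 rods, where they are high. The count of 7 is therefore a description and is not read against those shares. Neurod4 fell by 2.58 ± 0.20, Neurog2 by 2.01 ± 0.24, Hes6 by 1.95 ± 0.27, Olig2 by 1.88 ± 0.24, Insm1 by 1.13 ± 0.25, Atoh7 by 1.12 ± 0.25 and Neurod1 by 1.07 ± 0.27. The last pair were not called without P6 replicate 3, at -0.92 for Neurod1 and -0.79 for Atoh7. This was the step at which the precursor-associated Olig2 and Neurog2 reached low levels, at 0.227 ± 0.130 and 2.09 ± 0.547 CPM at P10 (n = 4).

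From P10 to P14, 4 members were called lower, where 3.8% of all genes were called and 2.74% fell. Atoh7 and Olig2 averaged 0.253 ± 0.0795 and 0.227 ± 0.130 CPM at P10 and were too low there to be called lower on this scale. The count of 4 is therefore a description and is not read against those shares. Neurod4 fell by 1.70 ± 0.20, Neurog2 by 1.11 ± 0.24, Insm1 by 1.07 ± 0.25 and Hes6 by 1.02 ± 0.27. Neurod4 was the one still called without P14 replicate 3, where Neurog2 was at -0.94, Insm1 at -0.85 and Hes6 at -0.67. Hes6 was also not called without P10 replicate 1, 2 or 3 (-1.03, -0.97 and -0.99), Neurog2 without P10 replicate 2 (-1.0) and Insm1 without P10 replicate 4 (-0.99). Neurod1 differed by 0.20 ± 0.27 (95% interval -0.37 to 0.78).

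From P14 to P28, 3 members fell where 21.5% of all genes were called and 17.2% fell. Neurod4 fell by 2.78 ± 0.20, Insm1 by 1.86 ± 0.25 and Neurod1 by 1.11 ± 0.27. Neurod1 was not called without P14 replicate 3 (-0.90) or P28 replicate 2 (-0.99). Hes6 was 0.42 ± 0.27 higher at P28 (adjusted p = 0.208). Atoh7 and Olig2 were at or near 0 at both ages, and Neurog2 averaged 0.437 ± 0.309 CPM at P14. Atoh7, Olig2 and Neurog2 were thus too low at P14 to be called lower on this scale. The count of 3 is therefore a description and is not read against those shares.

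The genes around the members fell in the same rods. Between P2 and P28, 6 of 7 tested other bHLH genes fell, as did 3 of 3 E-proteins, 9 of 9 antagonists and 22 of 24 targets, with 1 target higher. The list medians were -2.61, -3.34, -4.83 and -4.27, against -0.30 for all genes. The antagonist Hes1 went from 78.4 ± 12.4 CPM at P2 to 0.565 ± 0.358 at P28. The Insm1 relative Insm2 was 81.9 ± 1.69 at P2 and listed at 0 at P28. Tcf12 was the E-protein with the smallest fall, from 224 ± 18.5 to 129 ± 20.4. Of the proliferation genes 9 of 10 fell and of the retinal progenitor genes 8 of 9, while all 10 rod genes rose. The part of precursor cells in the members' levels was not tested.

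The likeness of the members' courses was measured by Pearson's r over the 11 group means of log2(CPM + 1). The highest correlations between members were 0.983 for Olig2 and Hes6, 0.974 for Neurod1 and Insm1, and 0.962 for Neurod4 and Insm1, and the lowest was 0.518 for Neurod1 and Atoh7. These are descriptions over groups that share libraries, strain and scaling. Among 12394 genes reaching 10 CPM in some group, those most like Neurod1 were Ppfia2 (r = 0.996), Pcdh15 (0.994) and the photoreceptor and bipolar homeobox gene Otx2 (0.993). Those most like Neurog2 were Myb (0.989), Pipox (0.986) and Fosb (0.984), and Myb itself was 60.4 CPM in CiPC, 172 at P2, 8.10 at P5 and 54.8 at P6. Those most like Neurod4 were Nhlh2 (0.992), Csrnp3 (0.991) and Brinp2 (0.990), and those most like Insm1 were Ppm1d (0.985), Igsf21 (0.982) and Tcte2 (0.981). Atoh7 was most like Krt73 (0.988), the precursor forkhead gene Foxn4 (0.976) and Onecut1 (0.961). Its mean was 18.2 CPM at P2 (n = 2) and at most 2.20 in any other group, so these correlations rest largely on P2. Olig2 was most like Foxn4 (0.981), the Notch ligand gene Dll3 (0.975) and Insm2 (0.970). Hes6 was most like Jund (0.961), which has 2 rows with the same values in the table, and Insm2 (0.961). Foxn4 and Insm2, which lie near Atoh7, Olig2 or Hes6 in this measure, were at 0.320 and 0.207 CPM in CiPC.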

How the data were processed

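RNA-seq of 33 libraries in 11 groups was used. The members and gene lists were chosen with earlier results of these data known. Values are a signal in normalised CPM that the authors deposited in 1 table. The submitters' processing notes name kallisto. Version, genome build and scaling: not given in the sources used here. No read counts could be recovered, so depth is unknown and no count model or counting interval was used. R 4.3.3 with limma 3.58.1 (trended variance) was fitted to log2(CPM + 1), which understates changes of low genes. The groups MEF, day 5, day 8, CiPC and P5 were fitted together (15 libraries), as were the other rods (18) and all 33. Genes needed 1 CPM in 3 libraries of a fit, and p-values were adjusted over all genes tested. Calls needed an adjusted p under 0.05 and a 2-fold change. The code was tested on simulated data. The 7 members were named always, and of each list up to 4 called genes by size of change. Others named (rod, bipolar and ganglion cell genes, Ptf1a, Tcf12, and further genes given beside them) were picked after values were seen. Alternatives varied the pseudocount, scaling, filter, fold rule, variance prior, samples fitted and replicate block. Promoters came from RefSeq (GRCm38.p6), and positions from GENCODE M21, which matched 99.05% of identifiers.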

Additional observations from a re-analysis of the deposited data

Results flagged for a closer look

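In 3 of 13 groups of 4 libraries with unequal values, 1 library stood far from the others, with a gap to its nearest neighbour over 0.829 of the group's range, the 95% critical value of Dixon's test for 4 samples. Insm1 in P28 rods was 30.2 CPM in replicate 1, while the other libraries had 15, 12.8 and 14.3 CPM (gap 0.873 of the range). Atoh7 in P28 rods was 0.664 CPM in replicate 4, while the others had 0, 0.0561 and 0 (gap 0.916). Olig2 in P10 rods was 0.0335 CPM in replicate 3, while the others had 0.290, 0.280 and 0.306 (gap 0.906). The Atoh7 and Olig2 values are all under 1 CPM. Such a gap appears by chance in about 1 in 20 groups. Groups of fewer than 4 libraries were not tested, nor was Olig2 at P28, where all 4 values are 0.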

How the results depend on the processing

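Under the alternatives run, 0 member differences reversed. Counts of called members that moved by over 1.5 times were those of P14 against P10, which was 4 and became 2 with a pseudocount of 4, 2 with quantile normalisation, 1 with the 2 groups fitted alone, 1 without the P10 and P14 rods whose labels list no older sample, and 2 without P10 replicate 4 and P14 replicate 3 together (chosen after seeing the data), and of P6 against P2 and P4, which was 1 and became 2 with no minimum fold. Leaving out 1 library at a time gave 0 to 0 for day 5 against MEF and for day 8 against day 5, 4 to 4 for CiPC against day 8, MEF and P5 and for P5 against MEF, 7 to 7 for age, 1 to 3 for P6, 5 to 7 for P10, 1 to 4 for P14, 2 to 3 for P28, 6 to 7 for P5 against P4 and P6, and 6 to 7 for CiPC against P2 and P4. Single members lost a call elsewhere: with a pseudocount of 4, Neurog2 for P5 against MEF (0.55), Atoh7 and Olig2 for P10 against P6 (-0.45 and -0.84) and for P5 against P4 and P6 (-0.47 and -0.87), and Neurog2 for CiPC against P2 and P4 (-0.85), with median-of-ratios scaling Neurog2 there (-0.88) and Neurod1 for P28 against P14 (-0.96), and with quantile normalisation Atoh7 for P10 against P6 (-0.86). Without the P10 and P14 rods whose labels list no older sample, Neurod1 was at -0.90 for P28 against P14. Calls gained were Hes6 for P5 against MEF with equal column sums (1.19) and Neurog2 for P28 against P14 with a pseudocount of 0.25 (-1.06). Deviations from group means were correlated between libraries of the same replicate number, at -0.405 to 0.277 over 30 pairs in culture and P5. For unlike numbers the range was -0.462 to 0.485 over 60 pairs. In other rods the ranges were -0.438 to 0.575 over 37 pairs and -0.678 to 0.780 over 96. With so few libraries per group, this check cannot decide whether replicate numbers pair the samples. With a replicate block the counts of members called were 7 for age and 6 for CiPC against P2 and P4, where Neurog2 was at -0.96, and no other call changed. Over all genes, called genes higher and lower were 479 and 401 for day 8 against day 5 (307 and 193 with a pseudocount of 4), 141 and 269 for P6 (88 and 169), 982 and 1101 for P10 (699 and 629, or 451 and 2496 with equal column sums), 144 and 375 for P14 (109 and 140, or 86 and 542, 161 and 232 after quantile normalisation, 47 and 98 with the groups alone, 105 and 204 without both named libraries), 586 and 2346 for P28 (441 and 958, or 56 and 4188, 533 and 821 after quantile normalisation, 1003 and 2047 with median-of-ratios scaling, 286 and 2047 without both named libraries) and 1118 and 1785 for P5 against P4 and P6 (725 and 1126). With equal column sums they were 2826 and 1859 in place of 2115 and 2306 for CiPC against day 8, 3122 and 1828 in place of 2282 and 2369 against MEF, and 4791 and 3475 in place of 3454 and 4314 for P5 against MEF. With no minimum fold every comparison of groups had over 1.5 times as many calls, from 325 and 483 for P6 to 6177 and 6836 for P5 against MEF, which the age fit had not. The cause of these shifts was not tested. CPM without counts leaves the precision of levels under 1 CPM unknown.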
